A study of Mus musculus with 10 samples.

Results

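The cytosolic chaperonin CCT, also called TRiC, is a protein folding machine built from 8 different but related subunits. Its subunits are encoded by Tcp1 (the alpha subunit), Cct2, Cct3, Cct4, Cct5, Cct6a, Cct7 and Cct8, and these 8 genes are described here. All probe sets that the platform annotation pairs with 1 of these symbols alone were taken. This gave 25 probe sets of the 45037 that are not controls, between 1 (Tcp1, Cct5) and 7 (Cct3, Cct4) for each gene. All 8 genes and 22 of the 25 probe sets passed the filter on low signal, out of 12580 genes and 27022 probe sets that passed it.

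CCT forms a double ring in which each ring holds 1 copy of each subunit, and an unfolded protein enters the cavity and folds there while ATP is used. Actin and tubulin are its classical clients and do not reach their native state without it, and some proteins with WD40 repeats also need it. Prefoldin, a separate chaperone, hands unfolded actin and tubulin to the ring. CCT is abundant in growing and dividing cells and less so in resting cells.

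The samples were bone marrow cells from female mice aged 8 weeks on a B6.SJL background. The Mll-deficient group was 5 Mx1-cre;Mll F/F mice and the control group 5 Mll F/F mice without cre, so both carried floxed alleles of Mll (gene symbol Kmt2a), a histone methyltransferase gene, and cre itself was not controlled for. Both groups received the interferon inducer pI:pC in 3 injections 48 hours apart, each of 50 µg and a further 10 µg for every gram of mouse, which turns on the interferon-responsive Mx1 promoter in many tissues besides blood. On day 6 LSK/CD48- cells, which lack lineage markers and CD48 and carry Sca-1 and Kit, were sorted as a fraction enriched for stem cells, and RNA of 1500 to 10000 cells was amplified and put on 1 Affymetrix array for each mouse. A probe set is a group of short probes against 1 transcript, and its signal is in arbitrary units that can be compared between arrays but not between probe sets.

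Each array had the same scaled mean signal, and the median signal of the arrays lay between 18.1 and 28.9. Of 12580 tested genes, limma called 473 higher and 221 lower in the Mll-deficient group at an adjusted p of 0.05, so 68.2% of the called genes were higher (81.5% when each array was centred on its median). Neither probe set of the targeted gene Kmt2a passed when all probe sets were fitted, with log2 differences of -0.38 ± 0.35 and -0.55 ± 0.31 (SE, adjusted p = 0.736 and 0.498), and their place relative to the excised part was not examined, so the labels have no check from them. Control replicate 5 stood apart: the log2 ratio of 3' to middle probe sets of Gapdh and Actb, a measure of RNA quality, was 5.19 on this array and between 1.73 and 3.86 on the other 9. The stem cell genes Mecom and Hlf, the gate marker Kit and the excluded marker Cd48 all gave signal above the filter, and Ly6a, which encodes Sca-1, was not named in the annotation.

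All 8 CCT subunit genes had a higher mean signal in Mll-deficient than in control cells, by a median of 0.58 on the log2 scale, which is 1.49-fold. Over all 12580 tested genes the median was -0.04, and 46.6% lay above 0. The subunits were bright. By mean signal their brightest probe sets lay between the 97.9th (Tcp1) and 99.8th (Cct3) percentile of all probe sets, except Cct8 at 87.2. They were not compared with genes of like brightness alone. One subunit passed the test, Tcp1, where 3.76% of all tested genes were called higher, and the other 7 did not pass. None was called lower, where 1.76% of tested genes were called, and none was lower at an unadjusted limma p below 0.05. At an unadjusted p below 0.05, 7 of the 8 were higher (not Cct4), where 10.5% of all tested genes were. The differences ran from 0.38 for Cct4 to 0.89 for Tcp1, which put the 8 genes between the 83.4th and the 96.6th percentile of the differences of all tested genes. In sorted bulk RNA, a change in the mix of cells and a change in RNA per cell cannot be told apart.

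**Figure D1:**
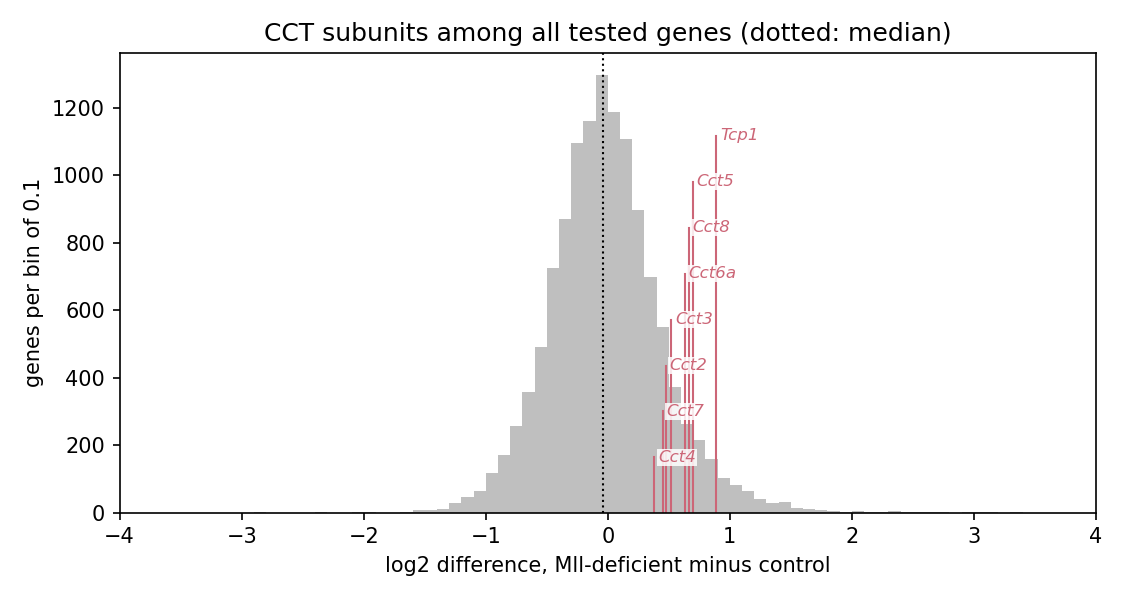
Histogram of the log2 difference (Mll-deficient minus control, horizontal axis) of the 12580 tested genes, with the number of genes per bin of 0.1 on the vertical axis; the dotted line is their median and each red line marks 1 CCT subunit, with line heights chosen only to separate the names. The 8 subunits lie to the right of the median, between 0.38 (Cct4) and 0.89 (Tcp1).

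The promoters of these genes are shown because the 8 genes lay on the same side of 0. RefSeq sequences of the GRCm38.p6 build, 250 bases before and 50 after a start site, were at hand for 7 of the 8 genes (Tcp1, Cct2, Cct3, Cct5, Cct6a, Cct7 and Cct8) in 9 windows, as Cct2 and Cct5 have 2 start sites each. The windows were searched on both strands for CCAAT, the motif bound by factor NF-Y, and for CACGTG, the E-box bound by Myc and its relatives. They were also searched for GAANNTTC and TTCNNGAA, where N is any base. These are the 2 possible pairs of neighbouring inverted GAA units of a heat shock element. CCAAT or its reverse complement ATTGG was in the windows of 4 genes, each with 1 window. That is 4 of the 9 windows, where 37.4% of all 32851 promoter windows held it. CACGTG was in 0 of the 9 windows and in 7.15% of all windows. GAANNTTC was in 1 of the 9 (Cct2, 42 bases before a start) and in 7.86% of all windows. TTCNNGAA was in 2 of the 9 (Cct5, 34 bases before a start, and Cct6a, after the start) and in 8.52% of all windows. The 4 genes with CCAAT are printed from 200 bases before the start site to the last base before it, on the coding strand, with CCAAT or ATTGG in capitals.
Tcp1, chr17:12916129-12916328, + strand: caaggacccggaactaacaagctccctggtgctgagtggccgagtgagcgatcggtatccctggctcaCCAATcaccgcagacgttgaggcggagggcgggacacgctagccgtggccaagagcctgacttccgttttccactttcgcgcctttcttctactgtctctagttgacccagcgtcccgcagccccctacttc
Cct3, chr3:88296935-88297134, + strand: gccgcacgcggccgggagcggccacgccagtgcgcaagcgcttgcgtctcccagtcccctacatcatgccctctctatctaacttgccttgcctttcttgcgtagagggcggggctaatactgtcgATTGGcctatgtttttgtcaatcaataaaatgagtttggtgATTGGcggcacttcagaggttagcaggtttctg
Cct6a, chr5:129787156-129787355, + strand: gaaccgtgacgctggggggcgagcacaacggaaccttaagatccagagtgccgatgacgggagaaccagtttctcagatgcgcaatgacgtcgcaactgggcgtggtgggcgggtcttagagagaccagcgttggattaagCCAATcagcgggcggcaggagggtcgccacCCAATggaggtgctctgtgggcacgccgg
Cct7, chr6:85451305-85451504, + strand: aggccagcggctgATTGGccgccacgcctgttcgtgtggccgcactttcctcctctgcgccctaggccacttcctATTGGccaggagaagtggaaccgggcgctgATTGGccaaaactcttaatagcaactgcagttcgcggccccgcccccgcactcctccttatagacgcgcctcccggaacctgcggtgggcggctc
Tcp1 held 1 match, 132 bases before the start, Cct3 held 2, at 74 and 33 bases, Cct6a held 2, at 59 and 29 bases, and Cct7 held 3, at 187, 125 and 95 bases. These are letter matches, and no binding was measured.

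The subunit that passed the test was Tcp1, which encodes the alpha subunit, and its single probe set was 1448122_at. It read 2422, 2560.1, 1958, 2139.6 and 1181 in control replicates 1 to 5 and 3560.1, 3932, 3348, 3402 and 4297 in Mll-deficient replicates 1 to 5. Every Mll-deficient array was above every control array, and control replicate 5 was the lowest of all 10. The means were 2052 ± 541 in controls and 3708 ± 401 in Mll-deficient cells (SD, n = 5 each). The log2 difference was 0.89 ± 0.22 (SE, limma adjusted p = 0.0251, 95% interval 0.43 to 1.35), or 1.85-fold. The call depended on single arrays: it was lost without control replicate 3 or 4 (adjusted p = 0.0601 and 0.0501) and without Mll-deficient replicate 1 or 5 (adjusted p = 0.0503 and 0.0751), with differences between 0.71 and 0.98 over the 10 fits that left out 1 array. Without control replicate 2 the call held and Cct5 passed as well, at 0.86 (adjusted p = 0.0440).

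Cct2, the beta subunit gene, was the other subunit whose groups did not overlap at the brightest probe set. That probe set, 1433535_x_at, read 6496, 6369, 6294, 6576 and 6327 in control replicates 1 to 5 and 9416, 9604, 7402, 8113 and 10364 in Mll-deficient replicates 1 to 5. The 5 controls lay within a narrow band and all 5 Mll-deficient arrays were above it. The means were 6413 ± 119 in controls and 8979.7 ± 1198 in Mll-deficient cells (SD, n = 5 each). The difference was 0.47 ± 0.17 (SE, limma adjusted p = 0.112, 95% interval 0.12 to 0.83), which did not pass. For 2 of the 8 genes the arrays of the groups were separated in this way, where 4.42% of all tested genes were separated with Mll-deficient arrays higher.

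Cct5 and Cct8, the epsilon and theta subunit genes, shared with Tcp1 a low value in control replicate 5. The single probe set of Cct5, 1417258_at, read 2690.1, 3735, 2050.1, 2849 and 1314 in control replicates 1 to 5 and 4164, 4385, 4019, 3357 and 3538 in Mll-deficient replicates 1 to 5. Of the 5 Mll-deficient arrays, 3 were above all controls, and control replicate 2 was the control that reached into their range. The means were 2528 ± 907 in controls and 3893 ± 431 in Mll-deficient cells (SD, n = 5 each), and the difference was 0.70 ± 0.24 (SE, limma adjusted p = 0.110, 95% interval 0.18 to 1.21). The tested probe set of Cct8, 1415785_a_at, read 330.1, 249.7, 320.2, 385 and 119.7 in control replicates 1 to 5 and 411, 600.4, 251, 431 and 522 in Mll-deficient replicates 1 to 5. Here 4 Mll-deficient arrays were above all controls and Mll-deficient replicate 3 was below 3 of them. The Cct8 difference was 0.67 ± 0.30 (SE, limma adjusted p = 0.210, 95% interval 0.04 to 1.29), the widest interval of the 8 subunits. Without control replicate 5 the differences of Cct5 and Cct8 were 0.48 and 0.41 (limma adjusted p = 0.137 and 0.355), the latter more than 1.5 times smaller than with it. Averaging both Cct8 probe sets, of which 1 was below the filter, gave 0.38.

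Cct3, Cct6a and Cct7, the gamma, zeta and eta subunit genes, showed the opposite place of control replicate 5, which was the highest control for each at the brightest probe set. For Cct3, 1448178_a_at read 8253, 10783, 10772, 10335 and 15239 in control replicates 1 to 5 and 17019, 13184, 16784, 14672 and 16669.7 in Mll-deficient replicates 1 to 5. Of the Mll-deficient arrays, 3 were above control replicate 5 and all 5 were above the other 4 controls. The Cct3 difference was 0.52 ± 0.19 (SE, limma adjusted p = 0.121, 95% interval 0.12 to 0.92). For Cct6a, 1455988_a_at read 3312, 3555, 4600.4, 4343 and 6600.4 in control replicates 1 to 5 and 6907, 5973, 5891, 7562 and 7651 in Mll-deficient replicates 1 to 5. Again 3 Mll-deficient arrays were above all controls and 5 above the 4 controls other than replicate 5. The Cct6a difference was 0.63 ± 0.21 (SE, limma adjusted p = 0.0851, 95% interval 0.20 to 1.07), the second smallest p of the 8 subunits. For Cct7, 1415816_at read 7669.6, 8091, 8892, 7659 and 11483 in control replicates 1 to 5 and 12764, 10736, 11493, 11307 and 12966 in Mll-deficient replicates 1 to 5, with the same count of arrays above the controls. The Cct7 difference was 0.45 ± 0.18 (SE, limma adjusted p = 0.152, 95% interval 0.08 to 0.82).

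Cct4, the delta subunit gene, had the smallest difference. Its brightest probe set, 1433447_x_at, read 3322, 2593, 5082, 3347 and 5299 in control replicates 1 to 5 and 4921, 4463, 4522, 5346 and 5499 in Mll-deficient replicates 1 to 5. Control replicates 3 and 5 lay within the range of the Mll-deficient arrays and the other 3 controls lay below it. The means were 3928 ± 1194 in controls and 4950.3 ± 469 in Mll-deficient cells (SD, n = 5 each), and the difference of 0.38 ± 0.21 (SE, limma adjusted p = 0.334, 95% interval -0.07 to 0.83) did not pass. Without control replicate 2, the lowest array, it was 0.24 (adjusted p = 0.547).

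**Figure D2:**
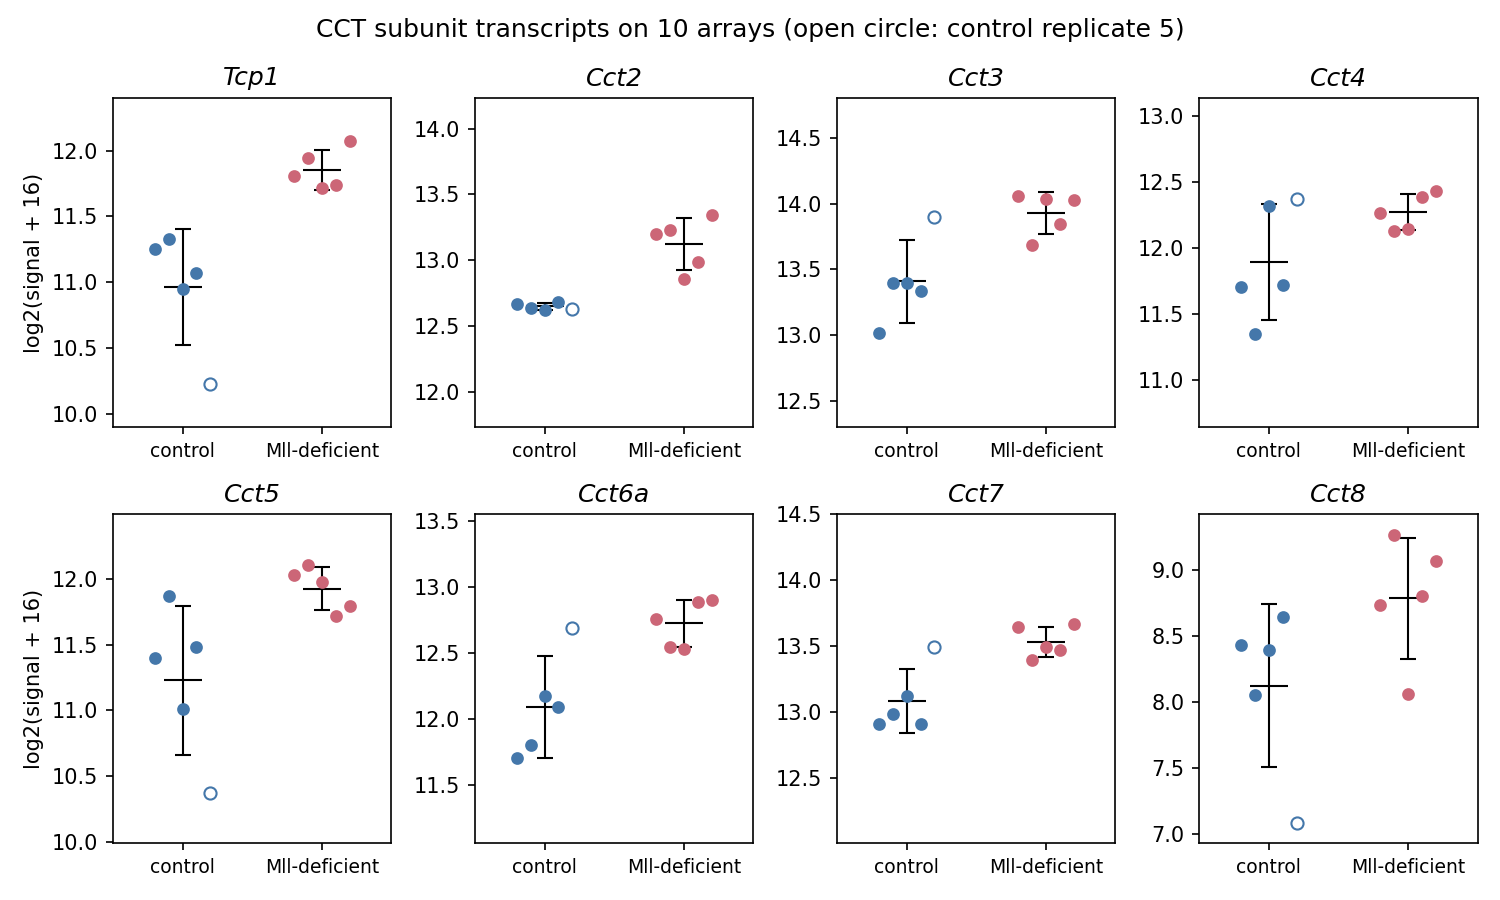
Signal of the 8 CCT subunit genes, as log2(signal + 16) on the vertical axis, for 5 control arrays (blue) and 5 Mll-deficient arrays (red), each point 1 mouse at the brightest probe set of the gene; bars are the mean and SD, panels have the same height in log2 units but different origins, and the open circle is control replicate 5. The groups do not overlap for Tcp1 and Cct2, and control replicate 5 is the lowest control for Tcp1, Cct5 and Cct8 and the highest for Cct3, Cct4, Cct6a and Cct7.

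The place of control replicate 5 differed between probe sets, also within 1 gene. Over the 22 tested probe sets it was the highest of the 5 controls at 11 and the lowest at 6, compared with 34.7% and 26.4% of all tested probe sets. For Cct2, this array lay 0.79 above the mean of the other 4 controls on the log2 scale at 1433534_a_at and -0.66 relative to it at 1416037_a_at. For Cct7 the corresponding values were 0.51 at 1415816_at and -0.56 at 1415817_s_at, and for Cct6a they were 0.75 at 1455988_a_at and -0.17 at 1423517_at. This array also had the highest 3' to middle ratio. With that ratio as a covariate, 6 of the 8 subunits were called higher (all but Cct4 and Cct8), where 7.72% of all genes were. Without control replicate 5, 4 were called higher (Tcp1, Cct3, Cct6a and Cct7), where 4.4% of all genes were, and Mll-deficient and remaining control arrays were fully separated for 5 (these 4 and Cct2), where 5.9% of all genes were separated this way. That count of separated genes was chosen with the values in view.

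**Figure D3:**
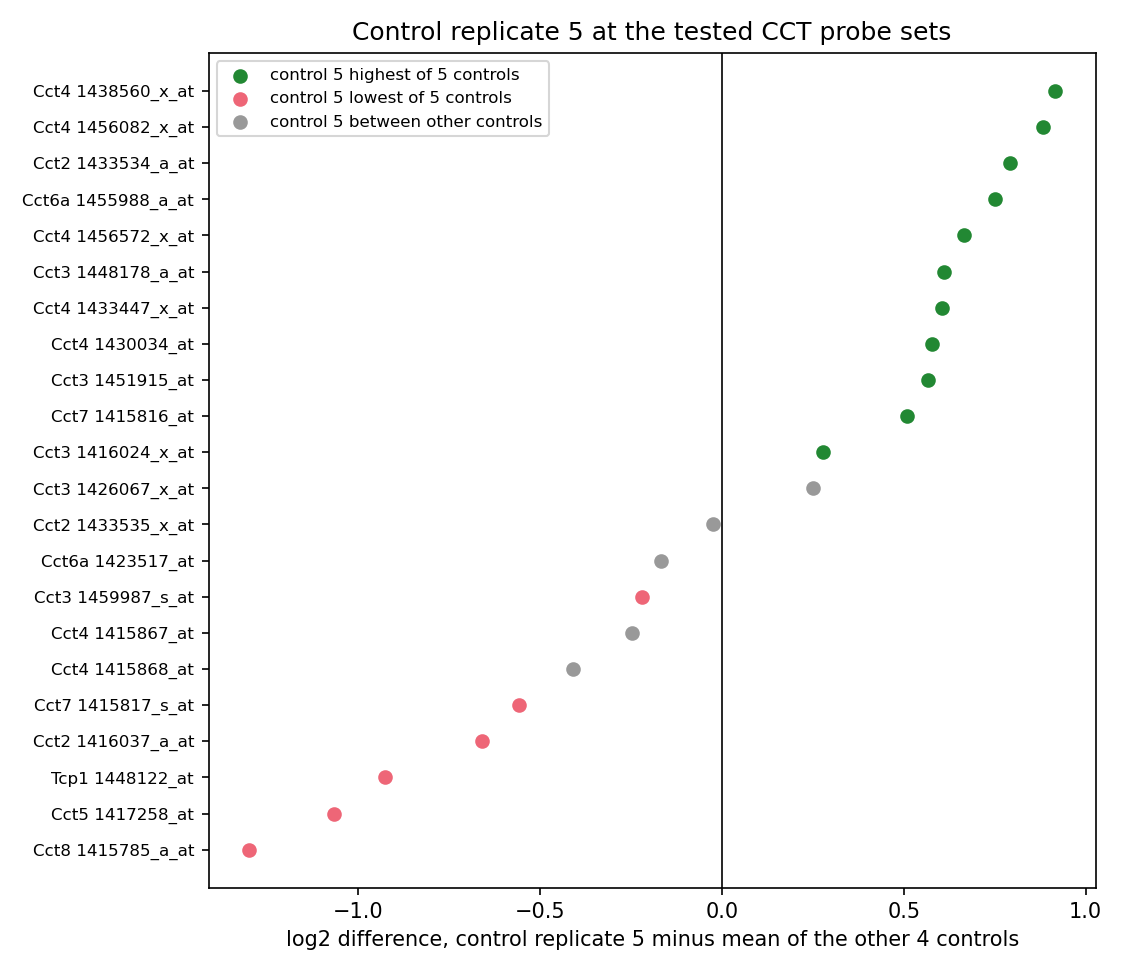
Difference between control replicate 5 and the mean of the other 4 controls, as log2(signal + 16) on the horizontal axis, at the 22 tested CCT probe sets ordered by that value; colours give the place of control replicate 5 among the 5 controls. The array is above the mean of the other 4 controls at some probe sets of Cct2, Cct3, Cct4, Cct6a and Cct7. It is below that mean at other probe sets of the same genes. The lowest value is at Cct8 (-1.30) and the highest at a Cct4 probe set (0.92).

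After each gene's values were centred on the mean of its group, the correlation of a subunit with the average of the other 7 over the 10 arrays ranged from -0.44 for Cct3 to 0.77 for Cct2. It was below 0 for 6 of the 8 subunits. Pairs of subunits varied together in 2 sets, which were chosen after the values were seen. Within Cct3, Cct4, Cct6a and Cct7 the pairwise correlations lay between 0.54 (Cct3 with Cct4) and 0.89 (Cct3 with Cct7). Within Tcp1, Cct5 and Cct8 they lay between 0.54 (Cct5 with Cct8) and 0.86 (Tcp1 with Cct5). Between the sets they ran from -0.93 (Cct4 with Cct5) to -0.31 (Cct4 with Cct8). These are descriptions over 10 arrays with control replicate 5 among them. The 5 genes outside the complex whose centred values were most like the average of the 8 subunits were Zbtb39, Uba3, Pole4, Zfp867 and Ptp4a2, with Pearson correlations between 0.92 and 0.93 over 10 arrays. They were picked as the highest among the 12580 tested genes, and such a choice over few arrays gives high correlations by itself. Zbtb39 and Zfp867 were also dim, with mean control signals of 12.9 and 15.5. Between the groups none of these 5 passed the limma test, with differences from -0.08 (Uba3) to 0.50 (Zbtb39).

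The 8 subunits were compared with each other through the difference of their log2 values on each array. Of the 28 pairs, 0 passed an exact two-sided permutation test with Benjamini-Hochberg adjustment over the pairs, and 2 had an unadjusted p below 0.05. The difference of Tcp1 exceeded that of Cct2 by 0.42 (95% interval -0.04 to 0.87, exact permutation p = 0.0159, adjusted 0.444). The difference of Cct4 relative to Cct6a was -0.25 (95% interval -0.52 to 0.02, exact permutation p = 0.0317, adjusted 0.444). The smallest p that 5 arrays against 5 allow is 0.00794, and a single pair at that p, with no other near it, would have an adjusted p of 0.222, so 1 differing pair could not pass. Tcp1 is thus the member past the threshold, but its difference from the other 7 was not shown by this test, and the widest intervals leave room for differences between subunits of up to 1.39 on the log2 scale.

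Among the 22 tested probe sets, 3 rose, at Tcp1, Cct3 and Cct6a, where 2.12% of all 27022 tested probe sets were called higher. None was called lower by limma, where 1.16% of tested probe sets were, and at an unadjusted p below 0.05 none was lower. Of the 22, 2 passed the filter only through the Mll-deficient arrays, the dim Cct3 probe set 1451915_at and Cct4 probe set 1415868_at, whose control means of 4.71 and 4.69 on the log2 scale lay below the filter's 4.82, so a higher value in Mll-deficient cells was a condition of their being tested. Directions are therefore given over all 25 probe sets, fitted with no filter. The difference was above 0 at 22 of the 25, where 45.4% of all 45037 probe sets lay above 0, and the median was 0.52 against -0.03 for all. Control and Mll-deficient arrays did not overlap at 6 of the 25, 1415868_at among them, where 2.06% of all 45037 were separated with Mll-deficient arrays higher. The count of 3 was 0 without control replicate 1 or 3 or Mll-deficient replicate 1, 2, 4 or 5, it was 1 without control replicate 4 or Mll-deficient replicate 3, and 7 without control replicate 5. With no filter on low signal it was 1, at Cct6a (adjusted p = 0.0447). The shares of all probe sets called in these alternative fits are not given here. Probe sets of 1 gene read the same transcripts and are not independent. The letters in a probe set's name mark sets whose probes also match other transcripts of the same gene (a), or are shared with (s) or partly similar to (x) other transcripts, so the latter kinds may hold signal of related genes or pseudogenes.

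The Cct6a call was at 1423517_at, the dimmer probe set of the gene. It read 1395, 1458, 1584, 2189.6 and 1450.3 in control replicates 1 to 5 and 2636, 3130.0, 2395, 2977 and 2996 in Mll-deficient replicates 1 to 5. All 5 Mll-deficient arrays were above all controls, of which replicate 4 was the highest, and the difference was 0.82 ± 0.19 (SE, adjusted p = 0.0284). The Cct3 call was at 1459987_s_at, which read 5239, 6668, 5079, 5834 and 4873 in control replicates 1 to 5 and 8391, 9426, 8015, 8597 and 9835 in Mll-deficient replicates 1 to 5. Here too the groups did not overlap, with a difference of 0.68 ± 0.17 (SE, adjusted p = 0.0390). The Cct3 probe set 1416024_x_at was separated between the groups as well but did not pass, at 0.57 ± 0.18 (SE, adjusted p = 0.0930). Of the 7 Cct3 probe sets, 4 had both groups above the filter and lay between 0.52 and 0.68, the dim 1451915_at was at 0.67, and the 2 below the filter lay below 0. The other Cct7 probe set, 1415817_s_at, had a difference of 0.56 ± 0.23 (SE, adjusted p = 0.192), and the other 2 of Cct2 had 0.34 ± 0.24 (SE, adjusted p = 0.480) at 1416037_a_at and 0.22 ± 0.23 (SE, adjusted p = 0.675) at 1433534_a_at.

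Cct4 had the widest range between its probe sets. The highest difference was at the dim 1415868_at, whose control signal was 10.5 ± 6.28 and Mll-deficient signal 28.5 ± 5.45 (SD, n = 5 each). The groups did not overlap there, and the difference was 0.78 ± 0.23 (SE, adjusted p = 0.0728), at a probe set that the filter kept only for its Mll-deficient signal. The lowest was at 1456572_x_at, the 1 tested CCT probe set below 0, at -0.63 ± 0.35 (SE, adjusted p = 0.367), where Mll-deficient replicates 1 and 2 read 18.3 and 17.0 and replicate 3 read 123. The other 5 lay between 0.08 and 0.63, and 0 of the 7 passed the limma test, with 2 at an unadjusted p below 0.05 (1438560_x_at and 1415868_at, both higher). Over the 36 pairs of tested probe sets within a gene, 0 passed an exact permutation test of their difference with adjustment over the pairs (smallest adjusted p = 0.429), and 2 had an unadjusted p below 0.05, both of them pairs of Cct4 with 1456572_x_at. A single pair at the smallest possible p would be at 0.286 here, so 1 differing pair could not have passed.

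**Figure D4:**
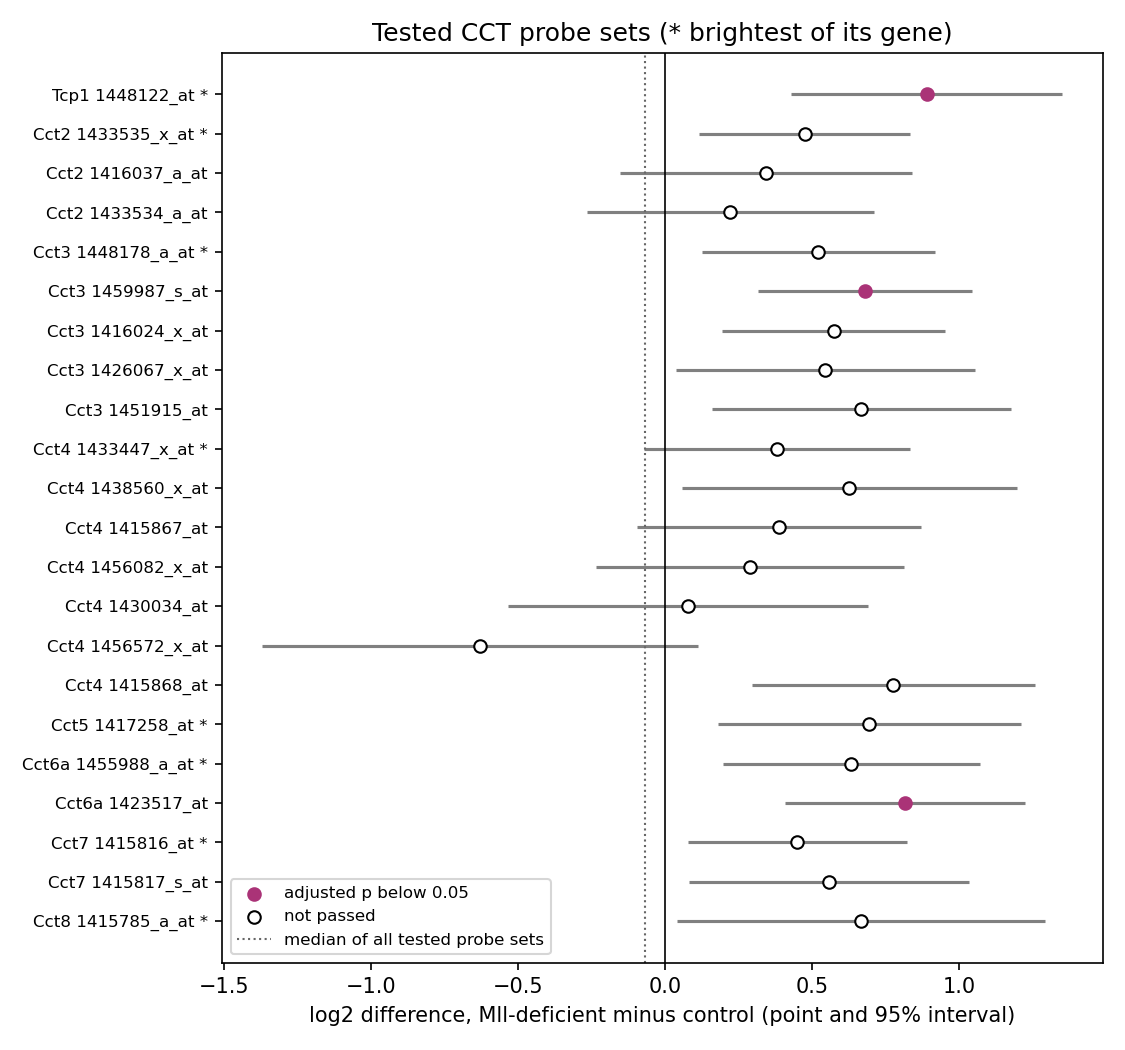
Log2 difference (Mll-deficient minus control, horizontal axis) with its 95% interval from limma for the 22 tested CCT probe sets, where filled points passed an adjusted p of 0.05, the solid line is 0 and the dotted line is the median of all 27022 tested probe sets. The 3 filled points are at Tcp1, Cct3 and Cct6a, and the points of 1451915_at and 1415868_at belong to probe sets that passed the filter only through the Mll-deficient arrays.

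The 3 probe sets below the filter were 2 of Cct3 and 1 of Cct8. The Cct3 probe sets 1439679_at and 1449645_s_at read at most 28.1 on any array, and the Cct8 probe set 1436973_at at most 3.9. When all probe sets were fitted their differences were -0.18, -0.27 and 0.10 (limma adjusted p = 0.837, 0.652 and 0.768).

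Prefoldin, which delivers clients to CCT, had 2 genes that rose among the 9 tested genes of prefoldin and prefoldin-like proteins, and 7 that did not pass. Of all tested genes, 3.76% were called higher. Pfdn6, a prefoldin subunit, rose from 5141 ± 1101 to 8822 ± 1672 (SD, n = 5 each), and the log2 difference was 0.79 ± 0.20 (SE, adjusted p = 0.0332). Pfdn1, another subunit, rose from 60.6 ± 21.5 to 122 ± 12.9 (SD, n = 5 each), and the log2 difference was 0.90 ± 0.24 (SE, adjusted p = 0.0368). The groups did not overlap for either gene, where 4.42% of all tested genes were separated with Mll-deficient arrays higher. The list had a median of 0.50, and 7 of its 9 genes lay above 0, where 46.6% of all tested genes did. Leaving out 1 array in turn ended the call of Pfdn6 in 5 of 10 fits and that of Pfdn1 in 9, and Pfdn1 kept its call in this series of fits only without control replicate 2. Pfdn6 lost its call without control replicates 1 and 3 and without Mll-deficient replicates 3, 4 and 5. Testing all genes with no filter ended both calls (adjusted p = 0.0584 and 0.0682 for Pfdn6 and Pfdn1), as did fitting no intensity trend for Pfdn6 and median centring for Pfdn1 (adjusted p = 0.0511 and 0.0544).

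The clients and cofactors of CCT did not pass. At an unadjusted limma p below 0.05, 10.5% of all tested genes were higher. Of the 3 tested phosducin-like cofactors 0 passed in limma, with 1 lower and 0 higher at an unadjusted p below 0.05, and all 3 lay below 0. They were led by Pdcl, which assists CCT in building G protein beta-gamma pairs, at -0.69 ± 0.30 (SE, adjusted p = 0.191), and Txndc9, at -0.15 ± 0.20 (SE, adjusted p = 0.716). Of 13 tested actin and tubulin genes 0 passed, with 2 higher and 1 lower at an unadjusted p below 0.05 and a median of 0.11. The smallest p values were those of Tuba1a, an alpha tubulin, at -0.69 ± 0.27 (SE, adjusted p = 0.149), and Tubg1, the gamma tubulin of centrosomes, at 0.50 ± 0.20 (SE, adjusted p = 0.171). Of 6 genes for cofactors that assemble tubulin after CCT 0 passed, and 0 at an unadjusted p below 0.05, with a median of 0.42. The first were Tbcc, at 0.52 ± 0.25 (SE, adjusted p = 0.242), and Arl2, at 0.57 ± 0.34 (SE, adjusted p = 0.377). Of 13 other client genes 0 passed, with 2 higher and 1 lower at an unadjusted p below 0.05 and a median of 0.19. The first were Wrap53, a telomerase cofactor, at 0.48 ± 0.20 (SE, adjusted p = 0.172), and Ccne1, which encodes cyclin E1, at 0.78 ± 0.32 (SE, adjusted p = 0.178).

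Among the other chaperonins, the mitochondrial co-chaperonin gene Hspe1 rose from 166 ± 23.7 to 625 ± 242 (SD, n = 5 each), and the log2 difference was 1.75 ± 0.25 (SE, adjusted p = 7.93e-04), while 4 tested genes did not pass. These Hspe1 values are of its brightest probe set, 1450668_s_at, a kind whose probes are shared with other transcripts. Its second probe set, 1422579_at, was at 0.72 (SE 0.22, adjusted p = 0.0849), which did not pass. At its brightest probe set Hspe1 kept its call in all 10 fits that left out 1 array. It also did so in the other alternatives run, which included averaged probe sets. Its partner Hspd1, the mitochondrial chaperonin, was at 0.40 ± 0.19 (SE, adjusted p = 0.247) and was named after its values were seen. Of 4 transcription factors linked to chaperone genes, Myc rose by 0.79 ± 0.22 (SE, adjusted p = 0.0455) and 3 did not pass, among them Mycn, at -0.91 ± 0.32 (SE, adjusted p = 0.115). Leaving out 1 array ended the Myc call in 9 of 10 fits, all but the fit without control replicate 4, and 4 alternatives with all arrays ended it too (median centring, no filter, no intensity trend and the replicate block). Hsf1, the heat shock factor gene, had no probe set paired with its symbol alone and was not tested.

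Markers of other cell types were read beside these values. Among 14 erythroid genes in the test, 10 rose and 4 missed the threshold, all 14 lay above 0, and the summed signal of the list was between 4754 and 9476 in controls and between 17202 and 20128 in Mll-deficient cells. Of all tested genes, 3.76% were called higher, 1.76% were called lower and 46.6% lay above 0. Among the erythroid genes the smallest p was that of Klf1, a transcription factor of red cell development, at 3.00 ± 0.27 (SE, adjusted p = 2.52e-05). The largest was that of Slc4a1, at 1.18 ± 0.90 (SE, limma adjusted p = 0.499). Its linear means went the other way, with 579 ± 1215 in controls and 220 ± 77.9 in Mll-deficient cells (SD, n = 5 each). Of 14 granulocyte and monocyte genes and 7 megakaryocyte genes 0 passed in limma, with 3 higher and 2 lower in the former and 0 higher and 2 lower in the latter at an unadjusted p below 0.05. The summed granulocyte and monocyte signal was between 115997 and 173524 in controls and between 121034 and 202668 in Mll-deficient cells, and that of megakaryocyte genes between 1741 and 4727 and between 1398 and 2639. Of 7 lymphoid genes in the test 1 fell, the interleukin 7 receptor gene Il7r, at -1.37 ± 0.38 (SE, adjusted p = 0.0443), with sums between 1171 and 1718 in controls and between 1086 and 2139.9 in Mll-deficient cells. Of 7 stem cell and gate genes 2 fell (Mecom and Hlf), 1 rose (Thy1) and 4 did not pass, with 5 lower and 1 higher at an unadjusted p below 0.05 and a median of -0.73. Their summed signal was between 1533 and 4910.4 in controls and between 939 and 2162 in Mll-deficient cells. The gate marker Kit was among those that did not pass, at -0.73 ± 0.27 (SE, limma adjusted p = 0.132). Every Mll-deficient array was below every control array for Kit. The sums take every listed gene with a probe set of its own, also below the filter, so they cover 8 megakaryocyte and 9 lymphoid genes. They add signals of different probe sets, so bright probe sets weigh most. The sums cannot be compared between lists and do not measure shares of cell types. The part of these cell types, and of the erythroid and stem cell genes in particular, in the CCT differences was not tested.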

How the data were processed

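RNA of 10 mice was measured on Affymetrix Mouse Genome 430 2.0 arrays. The authors deposited 1 linear signal intensity for each probe set and array, for which the submitters' processing notes name MAS5 5.0. Each array's mean without the lowest and highest 2% was 150.001, and such scaling removes differences in total RNA. Amplification of small RNA amounts favours 3' ends. No detection calls were used.

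Symbols were updated by Entrez identifier through the RefSeq table of GRCm38.p6 (34754 of 34958 found). Probe sets with several symbols named no gene. Values were transformed as log2(signal + 16), which understates fold changes of dim genes. Each gene was represented by its brightest probe set, and features above the 40th percentile of the probe set means were tested with limma 3.58.1 in R 4.3.3 (intensity trend, two-sided, Benjamini-Hochberg, threshold 0.05). Pairs of subunits were tested by exact permutation over all assignments of arrays to groups of 5, with intervals from the pooled SD. The fit was tested on simulated data in which 200 of 12580 genes were changed, 50 at each of 4 sizes. It recovered 1 of 50 changes of 0.5 on the log2 scale, 20 of 50 of 1, 45 of 50 of 2 and 49 of 50 of 3. Of 122 genes called, 7 were unchanged. Most changes of 0.5 or 1 were thus missed there. The changed genes were drawn at any signal level, and 122 calls arose where the data gave 694. These rates therefore need not hold for the subunits. A subunit that did not pass is not shown to be unchanged.

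Named genes were the 8 members, Kmt2a, list genes past the threshold or otherwise the 2 with the smallest p, leading markers, and the 5 genes most like the subunits. The members and lists were chosen with earlier results of these data known. For arrays, their number limits the precision.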

Additional observations from a re-analysis of the deposited data

Results flagged for a closer look

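Of 44 groups of 5 arrays (22 tested CCT probe sets in each of 2 genotypes), 2 held 1 array far from the other 4 by Dixon's ratio of gap to range. Its 95% critical value is 0.71, and chance gives such a gap in about 1 in 20 groups. The ratios were taken on log2(signal + 16), while the readings below are linear signals, on which the ratios would differ. At the Cct4 probe set 1456082_x_at, Mll-deficient replicate 2 read 165.7, below the next value of 261 in its group (ratio 0.731). At the Cct6a probe set 1423517_at, which passed the limma test, control replicate 4 read 2189.6, above the next control at 1584 (ratio 0.719).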

How the results depend on the processing

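All 8 subunits stayed above 0 in the alternatives run, which covered the offset, normalization, filter, variance prior, array weights, replicate block, RNA quality covariate, averaged probe sets and leaving out each array, and 0 were called lower in any of them. The median over the 8 lay between 0.44 and 0.64 with all arrays kept and between 0.51 and 0.61 with 1 array left out. With quantile normalization it was 0.47, and the differences ran from 0.31 for Cct7 to 0.83 for Tcp1. The count of subunits called higher, 1 in the report, was 6 with the 3' to middle ratio as a covariate, 4 with array weights, 3 with median centring, 2 with quantile normalization and 2 with averaged probe sets, and lay between 0 and 4 with 1 array left out. The count of CCT probe sets called higher, 3 in the report, was 11 with the covariate, 5 with array weights and 1 with no filter, and between 0 and 7 with 1 array left out. The shares of all probe sets called in these settings are not given, so these counts have no background beside them. Over all genes, 971 were higher and 647 lower with the covariate, 585 and 340 with array weights, and 471 and 107 with median centring. Quantile normalization gave 548 higher and 249 lower, and averaged probe sets 469 and 248. With 1 array left out, between 242 and 554 genes were higher and between 75 and 321 lower. The cause of these moves was not tested. Pairs of subunits had 0 calls in the settings run, which says nothing about stability, since a single differing pair could not pass at these numbers of arrays.

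Correlations of the deviations of same-numbered arrays ran from -0.23 to 0.28. Arrays with different numbers were not compared in this way, so these values neither show nor exclude a pairing by replicate number. With the replicate block, 399 genes were higher and 189 lower, 1 subunit and 2 CCT probe sets were called higher, and the median was 0.58.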
